A study of Mus musculus with 12 samples.

Results

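The 10 genes described here encode subunits of the machinery that cuts a nascent messenger RNA at its 3′ end and lets a poly(A) tail be added. They were chosen by name, Cpsf1, Cpsf2, Cpsf3, Cpsf4, Cpsf6, Cstf1, Cstf2, Cstf3, Nudt21 and Pcf11, and all 10 were found among the 23352 gene entries of the table. All 10 also passed the filter on low values, at least 1 FPKM (fragments per kilobase of transcript per M (mega) mapped reads) in at least 3 of the 12 libraries, which left 13945 genes for testing. Every member reached 1 FPKM in all 12 libraries.

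In the textbook scheme, the cleavage and polyadenylation specificity factor (CPSF) reads the AAUAAA signal and holds the endonuclease. The cleavage stimulation factor (CstF) binds the U- or GU-rich stretch downstream, cleavage factor I (CFIm) binds UGUA upstream, and cleavage factor II links the reaction to RNA polymerase II. The U1 small nuclear ribonucleoprotein, whose protein U1-70K is encoded by Snrnp70, is known both for recognising 5′ splice sites and for holding back premature cleavage and polyadenylation inside genes. The study asked what a neuronal fragment of U1-70K does to the hippocampal transcriptome.

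RNA came from whole hippocampus of C57BL/6J mice in 4 groups of 3 libraries. N40K mice carry a transgene for N40K, a truncated U1-70K, driven in neurons by a modified CaMKIIa promoter and kept as a single line (Tg396), and were sampled at 3 and at 12 months. Their wild-type controls were littermates without the transgene, sampled at the same ages. The libraries were made from poly(A)-selected RNA, so a transcript was counted only once it had been cleaved and polyadenylated, or carried another A-rich stretch. In whole tissue, fewer cells of a type and less RNA per cell cannot be told apart. With 1 line, the site of insertion cannot be told apart from the transgene.

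Snrnp70 checked the labels. It had 399, 401 and 377 FPKM in N40K mice at 3 months, against 179, 161 and 179 FPKM in wild-type mice at 3 months, a ratio of means of 2.27. At 12 months it had 305, 320 and 259 FPKM in N40K mice, against 138, 96.0 and 133 FPKM in wild-type mice, a ratio of 2.41. Sequencing depth, estimated from how far apart low FPKM values lie, was roughly 39.9 to 97.1 M reads per library, which gave each member between about 404 and 12261 reads in a library. Xist, transcribed in females, was at 17.3 FPKM in N40K replicate 3 and at 14.6 and 13.5 FPKM in wild-type replicates 2 and 3 at 3 months, and at 0.112 FPKM or less in the other 9 libraries; the labels give no sex. Markers listed for neurons summed to 2133 to 2245 FPKM in N40K mice and 2273 to 2554 FPKM in wild-type mice at 3 months, with 0 of 6 called. At 12 months they summed to 2130 to 2194 FPKM in N40K mice and 2367 to 2485 FPKM in wild-type mice, with 3 of 6 called lower. Also apart at 12 months, with 0 genes called, were the sums of oligodendrocyte and astrocyte markers. Oligodendrocyte markers summed to 1361 to 1452 FPKM in N40K and 1517 to 1646 FPKM in wild-type mice. Astrocyte markers summed to 477 to 510 FPKM in N40K and 423 to 474 FPKM in wild-type mice. Among the astrocyte markers only Slc1a2 separated the genotypes. It had 229, 197 and 210 FPKM in N40K mice, against 157, 177 and 192.5 FPKM in wild-type mice. The median log2 difference of the astrocyte list at 12 months was 9.5e-04. Endothelial markers summed to 43.7 to 46.8 FPKM in N40K mice and 33.0 to 34.5 FPKM in wild-type mice at 12 months, with 3 of 5 called higher. Of 6 hippocampal markers, 1 was called lower at 3 months, and 2 were called higher and 1 lower at 12 months. Of 5 microglial markers, 1 was called lower at 12 months. Among all tested genes 11.4% were called at 3 months and 18.9% at 12 months. No marker gene of the 8 cell type and region lists fell below 0.1 FPKM in every library, so none was absent. Choroid plexus RNA varied widely, with Ttr between 25.2 and 2977 FPKM in N40K mice and between 1053 and 2152 FPKM in wild-type mice at 12 months. With Xist or with Ttr as a covariate the genotype calls of members at each age were the same genes, and of the calls averaged over both ages Cpsf4 was lost under each. The part of the neuronal, endothelial and other marker shifts in any result below was not tested.

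Because the members act on poly(A) signals, the ends of their own transcripts are shown first. In the last 40 bases of each gene's principal annotated transcript (by its APPRIS tag, then by length), 6 of the 10 members held the canonical hexamer AATAAA, 1 held the common variant ATTAAA, and 3 (Cpsf1, Cpsf3 and Cpsf4) held neither. Over 21792 protein-coding genes the shares were 56.9%, 12.4% and 30.8%. Windows of 30 bases that hold the hexamer of the other 7 members and end at the annotated transcript end, or for Pcf11 just before it, follow (GENCODE M21, build GRCm38). They are written 5′ to 3′ in the direction of transcription, as DNA, with the hexamer in capitals.
Pcf11 (chr7:92643547-92643576, minus strand): cagtATTAAAacttgtgattttttttccgt
Cstf2 (chrX:134086790-134086819, plus strand): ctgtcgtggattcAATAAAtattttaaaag
Nudt21 (chr8:94015496-94015525, minus strand): gttatttcAATAAAaatatttaaaactgaa
Cpsf2 (chr12:102006395-102006424, plus strand): tatttcgctaataAATAAAagatgctgagc
Cpsf6 (chr10:117344673-117344702, minus strand): tcttgtattgaaAATAAAaacaaagttttg
Cstf1 (chr2:172382419-172382448, plus strand): tctaaAATAAAttttttttatataacagtg
Cstf3 (chr2:104665400-104665429, plus strand): aaaggAATAAAaggacctcaaaaacatgcc
Pcf11, the member that moved most with genotype, was the member with the variant signal, and its hexamer began 30 bases before the annotated end. In the other 6 the hexamer began 17 to 25 bases before that end. Of the other members called for genotype below, Cstf2 held AATAAA, and Cpsf3 and Cpsf4 held neither hexamer. A link between signal and genotype difference was not tested. A match is a description of the letters in this window and was not tied to any measured 3′ end, since the table holds 1 value per gene.

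FPKM values are scaled by transcript length, and levels are set beside each other here. The lengths used are not given, and GC content and overlapping genes differ between members, so the order describes these values only. Cpsf1, Cpsf3, Cpsf6 and Cstf2, with group means of 17.3 to 25.3 FPKM, stood above the other 6 in every group. Cstf3 had the lowest mean in all 4 groups, between 5.58 FPKM in wild-type mice at 12 months and 6.78 FPKM in N40K mice at 3 months, although at 3 months its libraries overlapped those of Nudt21 in N40K and of Pcf11 in wild-type mice. The top place differed by genotype. In N40K mice Cpsf3 was highest on average at both ages, 24.4 FPKM at 3 months and 21.6 FPKM at 12 months, although its 12-month libraries overlapped those of Cstf2 at 21.4 FPKM. In wild-type mice Cstf2 was highest at both ages, 25.3 FPKM at 3 months and 23.1 FPKM at 12 months, with every library above every Cpsf3 library of the same age. Other neighbours in the order also overlapped and had no order beyond their spread. In N40K mice these were Cpsf1 and Cstf2, and Cpsf4 and Cpsf2, at 3 months, and Cpsf1 and Cpsf6, and Cpsf2 and Cstf1, at 12 months. In wild-type mice they were Cstf1 and Cpsf2, and Nudt21 and Pcf11, at 3 months, and Cpsf2, Cstf1 and Nudt21 at 12 months. Cpsf1 overlapped both Cpsf3 and Cpsf6 in wild-type mice at 12 months, although every Cpsf3 library lay above every Cpsf6 library. The spread within a group was small: the coefficient of variation over 3 libraries had a median of 4.21% and a highest value of 13.9%, for Cpsf1 in wild-type mice at 12 months.

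**Figure D1:**
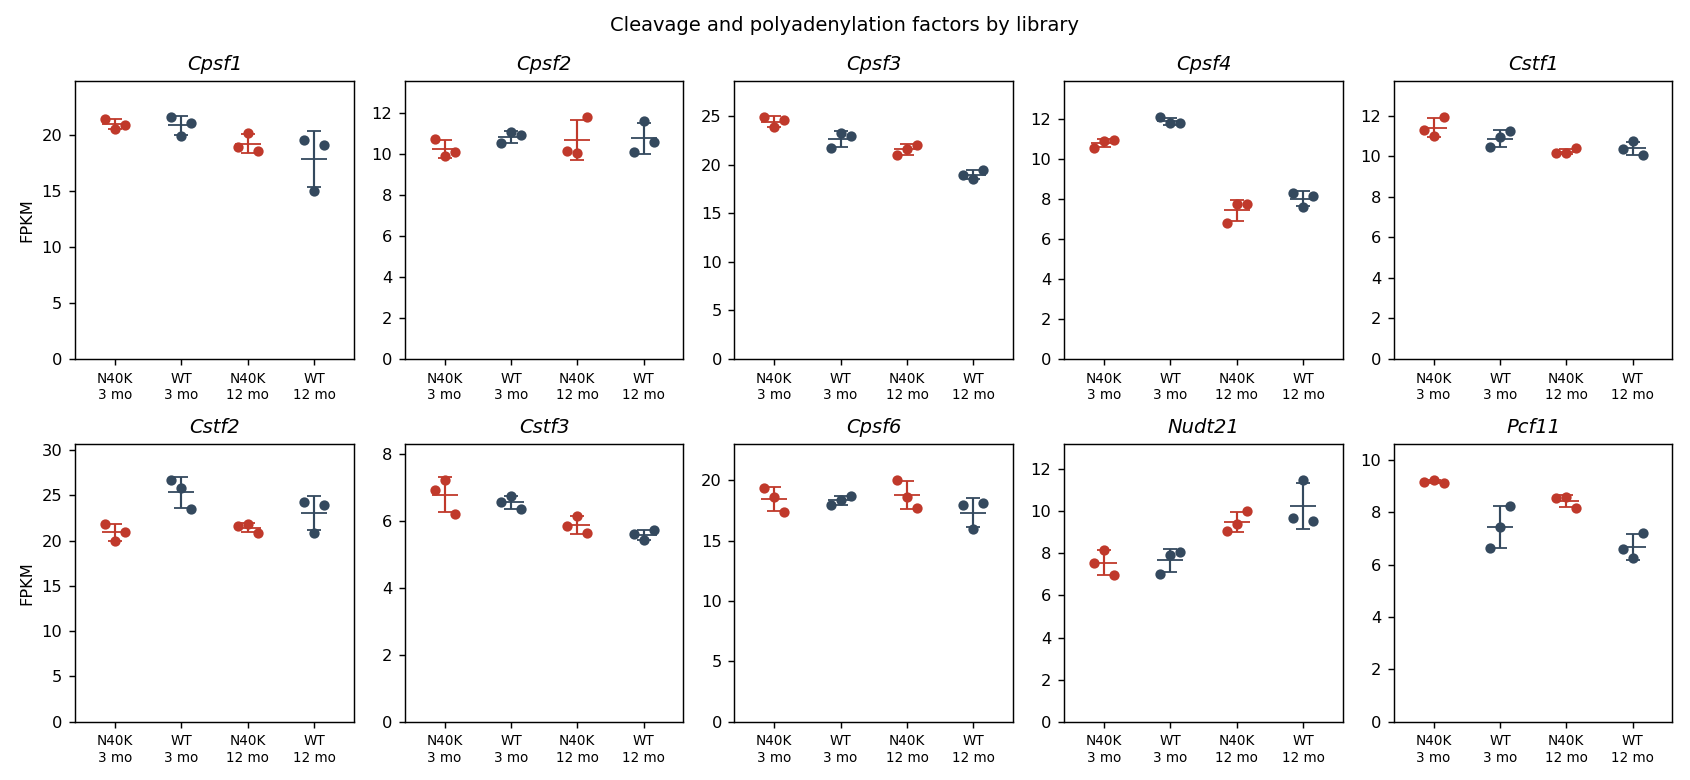
FPKM of each of the 10 members (vertical axes from 0) in 3 libraries per group, N40K and wild type (WT) at 3 and 12 months; points are libraries and bars are mean ± SD. Pcf11 in N40K mice lies above every wild-type library of the same age, Cstf2 in N40K mice lies below them at 3 months, and Cpsf4 is lower and Nudt21 higher at 12 than at 3 months in both genotypes.

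The first comparison was N40K against wild type at each age, which asks whether genes of the machinery that U1 is known to hold back differed in mice with the truncated U1-70K. Two-sided limma tests on log2(FPKM + 1) were adjusted over all 13945 genes, with calls at an adjusted p below 0.05. Calls went both ways among the members, as they did among all genes. Pcf11 was higher at both ages, Cpsf3 was higher at 12 months, and Cstf2 was lower at 3 months. The other 7 were called at neither age. At 3 months 1 of 10 members was called higher and 1 lower, where 11.4% of all genes were called, 7.95% higher and 3.49% lower. That count was 0 without N40K replicate 2 or 3 or wild-type replicate 1 or 2 at 3 months, and 1 without N40K replicate 1 or with each age fitted alone. It was 3, 1 higher and 2 lower, with the length trend removed or with the GC trend removed, Cpsf4 being the added gene. By unadjusted p below 0.05, limma put 2 higher and 2 lower at 3 months. At 12 months 2 were called higher and 0 lower, where 18.9% of all genes were called, 11.2% higher and 7.71% lower; by unadjusted p below 0.05, limma also put 2 higher and 0 lower. The counts at the adjusted threshold were near the background shares. No share of all genes was taken at the unadjusted cut, so the unadjusted counts here and below have no background beside them. The genotypes did not overlap for 4 members at 3 months (31.9% of all genes) and for 2 at 12 months (38.8% of all genes). The median log2 difference of the members was 0.0061 at 3 months and 0.025 at 12 months, against 0.020 and 0.0066 over all genes. The higher share among all calls, 69.5% at 3 months and 59.2% at 12 months, was 52.4% and 46.0% after the trend with GC content was removed, and no called member changed direction under it.

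Pcf11, the cleavage factor II subunit that binds the C-terminal domain of RNA polymerase II and acts in transcription termination, was the most changed member. It had 9.15, 9.23 and 9.13 FPKM in N40K mice at 3 months, against 6.64, 7.43 and 8.24 FPKM in wild-type mice. At 12 months it had 8.53, 8.59 and 8.15 FPKM in N40K mice, against 6.59, 6.24 and 7.19 FPKM in wild-type mice. All N40K libraries lay above all wild-type libraries at each age, a separation in 1 direction at both ages that 16.0% of all genes shared. The means were 9.17 ± 0.055 in N40K and 7.44 ± 0.799 FPKM in wild-type mice at 3 months (SD, n = 3 each), a ratio of 1.23. They were 8.42 ± 0.237 in N40K and 6.68 ± 0.483 FPKM in wild-type mice at 12 months (SD, n = 3 each), a ratio of 1.26. On the log2(FPKM + 1) scale Pcf11 was higher by 0.27 ± 0.07 (SE) at 3 months (limma adjusted p of 0.0245) and by 0.30 ± 0.07 at 12 months (adjusted p of 0.0116). The average of both ages was 0.29 ± 0.05 (adjusted p of 0.0014). The 12-month and averaged calls held under all 25 and 24 alternatives tried, with differences of 0.24 to 0.35 and 0.24 to 0.32. The 3-month call was lost, at 0.20 to 0.28 on the log2 scale, without N40K replicate 1, 2 or 3, without wild-type replicate 1 or 2, or with each age fitted alone (adjusted p 0.0544 to 0.0779). Pcf11 exons overlap a pair of annotated genes on the opposite strand, 6430511E19Rik and Gm26944, which have no row of that name here, and the counting strand is not given, so a share of its reads may belong to them.

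Cpsf3, the subunit known as the endonuclease that makes the cut, had 24.9, 23.8 and 24.6 FPKM in N40K mice at 3 months, against 21.7, 23.2 and 22.9 FPKM in wild-type mice. At 12 months it had 20.99, 21.6 and 22.1 FPKM in N40K mice, against 18.97, 18.5 and 19.5 FPKM in wild-type mice. The groups did not overlap at either age. The ratio of means was 1.08 at 3 months, with a log2 difference of 0.11 ± 0.04 that missed the threshold (limma adjusted p of 0.113). It was 1.14 at 12 months, with a log2 difference of 0.18 ± 0.04 and an adjusted p of 0.0113 (limma). Averaged over both ages Cpsf3 was higher by 0.14 ± 0.03, with an adjusted p of 0.0038 (limma). The 12-month and averaged calls held under all alternatives tried.

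Cstf2, the RNA-binding subunit of CstF encoded on the X chromosome, moved the other way. It had 21.9, 19.99 and 20.95 FPKM in N40K mice at 3 months, against 26.7, 25.8 and 23.5 FPKM in wild-type mice, with no overlap. At 12 months it had 21.6, 21.8 and 20.9 FPKM in N40K mice, against 24.3, 20.9 and 23.98 FPKM in wild-type mice, where wild-type replicate 2 lay at the lower end of the N40K values. The log2 difference was −0.26 ± 0.06 at 3 months (limma adjusted p of 0.0234) and −0.10 ± 0.06 at 12 months (adjusted p of 0.309). Averaged over both ages it was −0.18 ± 0.05 (adjusted p of 0.0135), a call that held under all 24 alternatives. The 3-month call was lost without N40K replicate 2 or 3 or wild-type replicate 1 or 2, with differences of −0.22 to −0.26 and adjusted p-values of 0.0679 to 0.0885. With the Xist level as a covariate the 3-month difference was −0.28 ± 0.07 (adjusted p of 0.0352). The libraries with Xist reads at 3 months had 20.95 FPKM of Cstf2 in N40K and 25.8 and 23.5 FPKM in wild-type mice. Nox1, on the opposite strand, and Mir3112, on the same strand, overlap Cstf2 exons; they were listed at 0.0133 to 0.210 and 1.92 to 7.13 FPKM over the 12 libraries.

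Cpsf4, a zinc-finger subunit that helps bind the poly(A) signal, sat between called and not called. It had 10.6, 10.9 and 10.9 FPKM in N40K mice at 3 months, against 12.1, 11.8 and 11.8 FPKM in wild-type mice, with no overlap. At 12 months it had 6.82, 7.74 and 7.74 FPKM in N40K mice, against 8.29, 7.57 and 8.16 FPKM in wild-type mice, with overlap. The log2 difference was −0.13 ± 0.05 at 3 months (limma adjusted p of 0.149) and −0.10 ± 0.05 at 12 months (adjusted p of 0.218). Only the average over both ages passed, at −0.11 ± 0.04 (adjusted p of 0.0454), and that call was lost in 14 of 24 alternatives. At 3 months Cpsf4 was called lower in 2 of 25 alternatives, with the length trend removed (−0.19, adjusted p of 0.0368) and with the GC trend removed (−0.19, adjusted p of 0.0255). The averaged call was lost, among others, under every omission of 1 library other than N40K replicate 3 or wild-type replicate 2 at 12 months.

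The remaining subunits were called in no genotype contrast. Cpsf1, the large CPSF scaffold subunit, averaged 20.97 ± 0.458 in N40K and 20.9 ± 0.867 FPKM in wild-type mice at 3 months, and 19.2 ± 0.818 in N40K and 17.9 ± 2.49 FPKM in wild-type mice at 12 months (SD, n = 3 each). Wild-type replicate 2 at 12 months, with 15.02 FPKM, was well below the 19.6 and 19.1 FPKM of its group. That library was the lowest of its group for 7 of the 10 members and the highest for the other 3. N40K replicate 3 at 12 months was likewise the highest of its group for 5 members and the lowest for the other 5. Cpsf1 exons overlap those of Adck5 on the opposite strand, listed at 6.72 to 13.3 FPKM over the 12 libraries. The counting strand is not given, so a share of the Cpsf1 reads may belong to Adck5. Cpsf2, the catalytically inactive relative of Cpsf3 within CPSF, averaged 10.3 FPKM in N40K and 10.9 FPKM in wild-type mice at 3 months, and 10.7 and 10.8 FPKM in N40K and wild-type mice at 12 months. Cpsf2 exons overlap Ndufb1-ps on the opposite strand, which has no row of that name here. Cstf1 and Cstf3, the WD-repeat and the scaffold subunits of CstF, had log2 differences between −0.021 and 0.064. The CFIm subunits Nudt21 and Cpsf6, which bind UGUA and steer the choice between proximal and distal poly(A) sites, did not pass either. Nudt21 differed by −0.017 ± 0.08 at 3 months and by −0.096 ± 0.08 at 12 months, with 95% intervals of −0.187 to 0.154 and −0.267 to 0.0741. Cpsf6 differed by 0.0040 ± 0.06 at 3 months and 0.11 ± 0.06 at 12 months, with intervals of −0.127 to 0.135 and −0.0206 to 0.241. These intervals bound what 3 libraries a group can show and do not show equality.

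**Figure D2:**
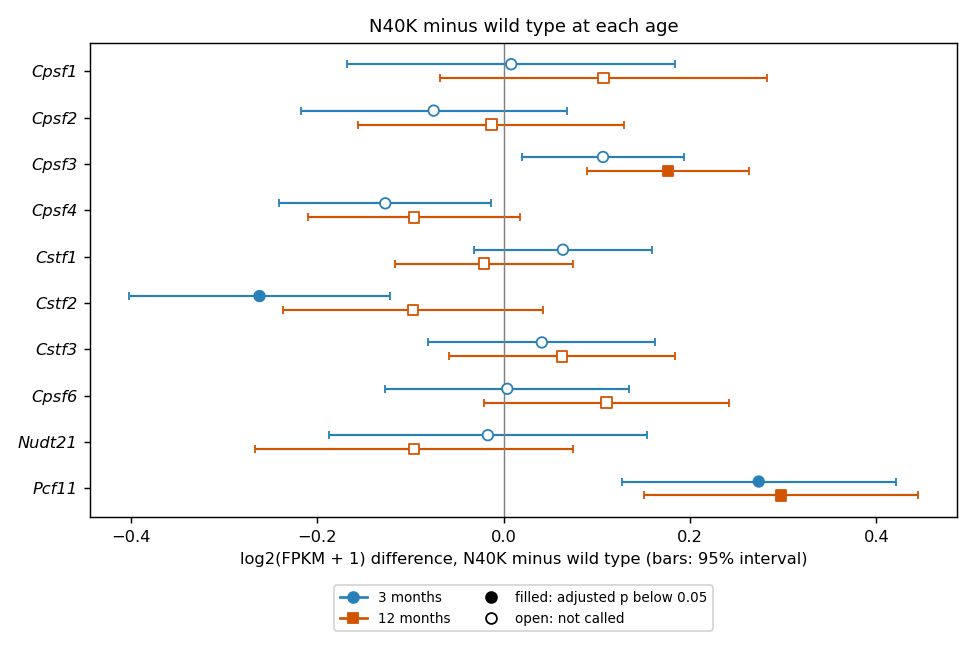
Difference in log2(FPKM + 1), N40K minus wild type (horizontal axis), for each member at 3 months (circles) and 12 months (squares), with 95% intervals; filled symbols have an adjusted p below 0.05. Pcf11 is called at both ages at 0.27 and 0.30, Cpsf3 only at 12 months at 0.18, and Cstf2 only at 3 months at −0.26.

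Averaged over both ages, 2 members were called higher (Pcf11 and Cpsf3) and 2 lower (Cstf2 and Cpsf4), where 25.0% of all genes were called, 15.5% higher and 9.54% lower (61.9% of the calls higher, and 45.9% with the GC trend removed). The difference between the effects at 12 and 3 months was called for 0 of 10 members by limma, and 0 had an unadjusted p below 0.05; 9 genes in all, 0.0645%, were called, 0.0359% higher and 0.0287% lower. Cstf2 had the largest such difference, 0.16 ± 0.09 with an unadjusted limma p of 0.0933 and an adjusted p of 0.430, so its call at 3 months and not at 12 months does not show that its effect differed by age. Pcf11 differed by 0.024 ± 0.09 between the ages (adjusted p of 0.934).

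The members did not vary as a block. Over the 12 libraries, Pearson correlations of log2(FPKM + 1) among the 45 pairs ran from −0.86 for Cpsf1 with Nudt21 to 0.81 for Cpsf3 with Cstf3, with a median of 0.095. After the 4 group means were removed they ran from −0.82 for Cstf2 with Nudt21 to 0.75 for Cpsf1 with Cstf2. All members share the depth and normalisation of a library, and these values are descriptions. The 5 tested entries closest to Pcf11 over the 12 libraries were Cpt1b;BC090627 (a joined entry, r of 0.98), Akap17b (0.97), Rrp1b (0.97), Slc19a2 (0.97) and Lgals4;Lgals6 (a joined entry, 0.97). Among the members Cpsf3 was closest to Pcf11 at 0.80, rank 674 among the tested genes, and Cstf2 farthest at −0.56. These correlations with Pcf11 hold the differences between the group means. After the group means were removed, that of Cpsf3 was 0.57 and that of Cstf2 was −0.13.

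The promoters of Pcf11 and Cpsf3, the members called higher, are shown because both moved in 1 direction. They are the 250 bases before the RefSeq start (GRCm38.p6), with matches to the motifs searched in capitals.
Pcf11 (chr7:92669913-92670162, minus strand): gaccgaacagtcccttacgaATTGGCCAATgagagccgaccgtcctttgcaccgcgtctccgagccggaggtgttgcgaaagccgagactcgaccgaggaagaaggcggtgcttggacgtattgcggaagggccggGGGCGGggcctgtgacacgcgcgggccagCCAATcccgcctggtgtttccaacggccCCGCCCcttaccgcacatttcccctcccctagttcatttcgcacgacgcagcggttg
Cpsf3 (chr12:21286047-21286296, plus strand): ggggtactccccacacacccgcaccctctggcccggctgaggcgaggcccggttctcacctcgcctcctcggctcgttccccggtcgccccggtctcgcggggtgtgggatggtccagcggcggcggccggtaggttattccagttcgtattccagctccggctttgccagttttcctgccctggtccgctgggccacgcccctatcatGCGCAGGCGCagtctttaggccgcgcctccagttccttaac
The motifs searched, on both strands, were CCAAT, the GC box GGGCGG, the ETS core CCGGAAG, the NRF1 site and TATAAA. Of 32817 RefSeq promoters of that length 33.8% held CCAAT, 32.7% the GC box, 6.91% the ETS core, 3.73% the NRF1 site and 12.4% TATAAA. Pcf11 held 3 CCAAT matches, of which a pair in opposite orientation meet in the capitals near the far end, and 2 GC boxes. Cpsf3 held 1 NRF1 site and neither CCAAT nor a GC box, so the promoters share none of the 5 motifs in this window. Over the 10 RefSeq promoters of the members, 3 held CCAAT, 4 the GC box, 1 the ETS core, 3 the NRF1 site (1 of Cpsf3 and 2 of Cpsf4) and 0 TATAAA. The 2 Cpsf4 promoters overlap and hold the same NRF1 site, which is therefore counted in both. RefSeq promoters were found for 9 of the 10 members, Cpsf1 being the other.

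The second comparison was 12 against 3 months in each genotype. Age is tied to separate series of library numbers in the labels, and every library with Xist reads is from 3 months, so age cannot be told apart from these. Cpsf4 was lower and Nudt21 higher at 12 months in both genotypes, and the Cpsf4 difference was the largest of any member in any contrast. In N40K mice 1 member was called higher and 4 lower, where 51.6% of all genes were called, 15.1% higher and 36.5% lower. In wild-type mice 1 was called higher and 4 lower, where 41.6% were called, 12.6% higher and 29.0% lower. All genes together had a median difference of −0.10 in N40K and −0.077 in wild-type mice, a shift that median-ratio scaling brings to −0.0090 and −0.0099; the members had −0.11 and −0.13. Under that scaling the higher share of all calls was 51.6% in N40K and 50.7% in wild-type mice, against 29.3% and 30.3% without it, and the members called were Cpsf4 and Nudt21 in N40K mice and Cpsf3, Cpsf4 and Nudt21 in wild-type mice.

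Cpsf4 had 6.82, 7.74 and 7.74 FPKM at 12 months against 10.6, 10.9 and 10.9 FPKM at 3 months in N40K mice, a ratio of means of 0.688. In wild-type mice it had 8.29, 7.57 and 8.16 FPKM at 12 months against 12.1, 11.8 and 11.8 FPKM at 3 months, a ratio of 0.674. The ages did not overlap in either genotype. The log2 differences were −0.49 ± 0.05 in N40K (limma adjusted p of 3.2e-05) and −0.52 ± 0.05 in wild-type mice (adjusted p of 4.26e-05). Under the alternatives they ran from −0.54 to −0.25 and from −0.56 to −0.35, called in all 24.

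Nudt21 had 9.07, 9.38 and 10.002 FPKM at 12 months against 7.54, 8.17 and 6.98 FPKM at 3 months in N40K mice, a ratio of 1.25. In wild-type mice it had 9.67, 11.5 and 9.55 FPKM at 12 months against 7.02, 7.92 and 8.05 FPKM at 3 months, a ratio of 1.34. Again the ages did not overlap. The log2 differences were 0.29 ± 0.08 in N40K (limma adjusted p of 0.0084) and 0.37 ± 0.08 in wild-type mice (adjusted p of 0.0031), and both were called in all 24 alternatives. Its CFIm partner Cpsf6 was not called, at 0.026 ± 0.06 in N40K and −0.080 ± 0.06 in wild-type mice, but with the length trend removed it was called lower in wild-type mice (−0.18 ± 0.05, adjusted p of 0.0182).

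Most of the smaller age differences depended on the scaling. Cpsf3 was lower at 12 months by −0.17 ± 0.04 in N40K (limma adjusted p of 0.0037) and by −0.24 ± 0.04 in wild-type mice (adjusted p of 7.61e-04). The wild-type call held in all 24 alternatives; the N40K call was lost under median-ratio scaling at −0.069, quantile normalisation at −0.073 and removal of the length trend at −0.020. Cstf3 was lower by −0.18 ± 0.06 in N40K (adjusted p of 0.0190) and −0.20 ± 0.06 in wild-type mice (adjusted p of 0.0139), and both calls were lost under the same 3 settings. The N40K call of Cstf3 was also lost without N40K replicate 1 or 2 at 3 months or replicate 1 or 3 at 12 months (adjusted p of 0.0523 to 0.0810). Cstf1 was called in N40K mice, at −0.14 ± 0.04 (adjusted p of 0.0173), against −0.059 ± 0.04 in wild-type mice; the call was lost under those settings, with the GC trend removed (−0.028 to −0.077 over these) and without N40K replicate 3 at 3 months or replicate 1 or 2 at 12 months (adjusted p of 0.0516 to 0.0715); the difference between the genotypes missed the threshold (−0.085 ± 0.06, adjusted p of 0.553). Cpsf1 was not called in N40K mice, at −0.12 ± 0.08 (adjusted p of 0.235), and was called in wild-type mice, at −0.22 ± 0.08 (adjusted p of 0.0469), which held in 7 of 24 alternatives. The difference between the genotypes missed the threshold (0.099 ± 0.11, adjusted p of 0.726). Without the low wild-type replicate 2 at 12 months, Cpsf1 was called in N40K mice (−0.12, adjusted p of 0.0313) and not in wild-type mice (−0.10, adjusted p of 0.0989). Pcf11 was called in neither genotype, at −0.11 ± 0.07 in N40K and −0.13 ± 0.07 in wild-type mice, but passed in both when the trend with length or GC content was removed (−0.23 and −0.18 in N40K, −0.20 and −0.18 in wild-type mice), and in wild-type mice without replicate 1 at 3 months (−0.20, adjusted p of 0.0292). Cpsf2 and Cstf2 were called in neither. Of the members, 7 did not overlap between ages in N40K mice, where 62.8% of all genes did not, and 5 in wild-type mice, where 50.3% did not.

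**Figure D3:**
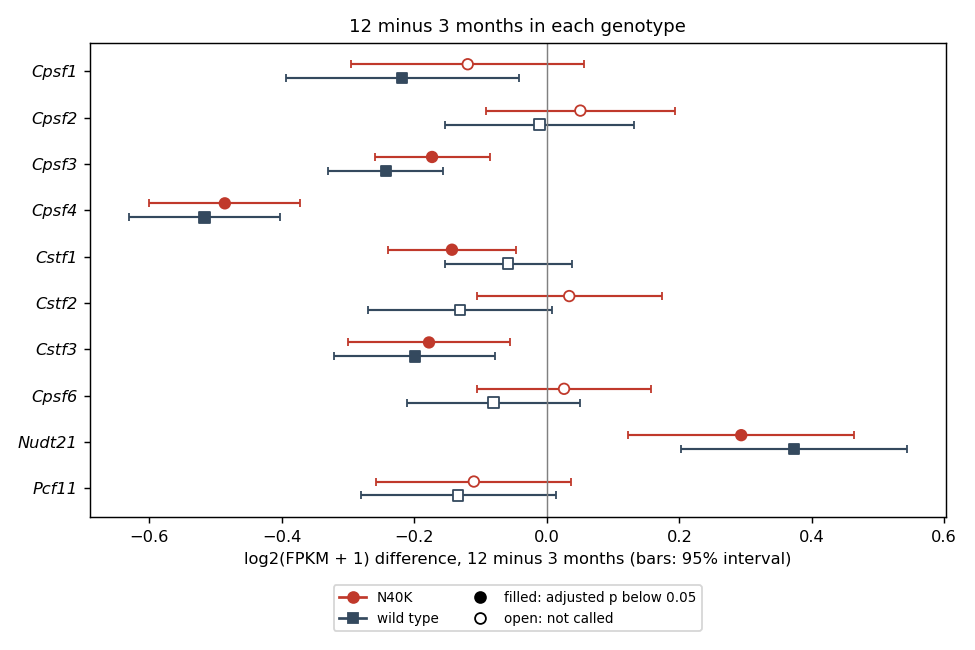
Difference in log2(FPKM + 1), 12 minus 3 months (horizontal axis), for each member in N40K mice (circles) and wild-type mice (squares), with 95% intervals; filled symbols have an adjusted p below 0.05. Cpsf4 lies at −0.49 and −0.52 and Nudt21 at 0.29 and 0.37 in N40K and wild-type mice.

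Other genes of 3′ end formation were read from lists chosen by name. Of 17 further core factors, 0 were called at 3 months by limma in either direction, where 11.4% of all genes were called. An unadjusted limma p below 0.05 was reached by 3 of them. The 2 with the smallest p were Ssu72, a phosphatase of the polymerase C-terminal domain, at 0.22 ± 0.08 (adjusted p of 0.0819), and Wdr33, which contacts the AAUAAA signal within CPSF, at 0.11 ± 0.05 (adjusted p of 0.151). At 12 months 2 of 17 were called higher and 2 lower, near the 11.2% and 7.71% of all genes. Cpsf7, the second large CFIm subunit, had 24.9, 25.5 and 24.3 FPKM in N40K mice, against 22.6, 20.4 and 22.3 FPKM in wild-type mice (0.19 ± 0.05, adjusted p of 0.0198). Scaf8, a binder of the polymerase C-terminal domain, had 14.4, 13.96 and 13.9 FPKM in N40K mice, against 12.0, 11.7 and 12.7 FPKM in wild-type mice (0.20 ± 0.06, adjusted p of 0.0398). Papola, the canonical poly(A) polymerase, was lower with 26.4, 26.1 and 26.7 FPKM in N40K mice, against 30.2, 27.8 and 30.02 FPKM in wild-type mice (−0.15 ± 0.05, adjusted p of 0.0432). Ppp1cb, a phosphatase subunit, was lower by −0.18 ± 0.05 (adjusted p of 0.0345). The genotypes did not overlap at 12 months for 8 of the 17, these 4 among them, where 38.8% of all genes did not. Averaged over both ages 3 were called higher, Cpsf7 (0.13), Scaf8 (0.15) and Wdr33 (0.10), and 2 lower, Papola (−0.10) and Ppp1cb (−0.14). Over all genes 15.5% were called higher and 9.54% lower in that average. The list medians of 0.021 at 3 months and 0.052 at 12 months stood beside 0.020 and 0.0066 for all genes. Cpsf7 shares exon sequence with Sdhaf2 on the opposite strand and Scaf8 with Gm49797 on the same strand.

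Of 6 factors of histone pre-mRNA processing, a route that does not add a tail, 5 were tested. Of these 0 were called by limma at 3 months, at 12 months or on average, with 0, 1 and 1 at an unadjusted p below 0.05. The shares of all genes called were 11.4%, 18.9% and 25.0%. The smallest p-values at 3 months belonged to Lsm11 (0.17 ± 0.08, adjusted p of 0.218) and Lsm10 (0.12 ± 0.07, adjusted p of 0.322), and at 12 months to Lsm10 (−0.18 ± 0.07, adjusted p of 0.106) and Slbp (−0.086 ± 0.07, adjusted p of 0.417). On average they belonged to Lsm11 (0.13 ± 0.06, adjusted p of 0.128) and Eri1 (−0.044 ± 0.04, adjusted p of 0.485).

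The Integrator complex, which cleaves small nuclear and other nascent RNAs with relatives of Cpsf3 and Cpsf2, had 14 tested subunits, of which 0 were called higher and 1 lower at 3 months and 1 higher and 1 lower at 12 months. The shares of all genes called were 11.4% and 18.9%. Ints7 had 5.45, 5.27 and 5.11 FPKM in N40K mice at 3 months, against 7.41, 8.34 and 8.18 FPKM in wild-type mice, a ratio of 0.662. At 12 months it had 5.34, 5.38 and 5.85 FPKM in N40K mice, against 9.08, 7.54 and 9.31 FPKM in wild-type mice, a ratio of 0.639. The groups did not overlap at either age, and the differences, −0.51 ± 0.07 and −0.56 ± 0.07 (limma adjusted p of 0.0013 and 6.04e-04), were about as large as that of Cpsf4 with age. Ints2 was higher at 12 months with 7.16, 6.86 and 6.26 FPKM in N40K mice, against 5.35, 4.76 and 5.49 FPKM in wild-type mice (0.32 ± 0.06, adjusted p of 0.0056). Averaged over both ages Ints2 (0.22) and Ints8 (0.14) were called higher and Ints7 (−0.54) lower, where 15.5% and 9.54% of all genes were. Exons of Ints2 overlap Brip1os and those of Ints8 overlap Ccne2, each on the opposite strand. Exons of Ints7 overlap no exon of another gene in the annotation used.

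**Figure D4:**
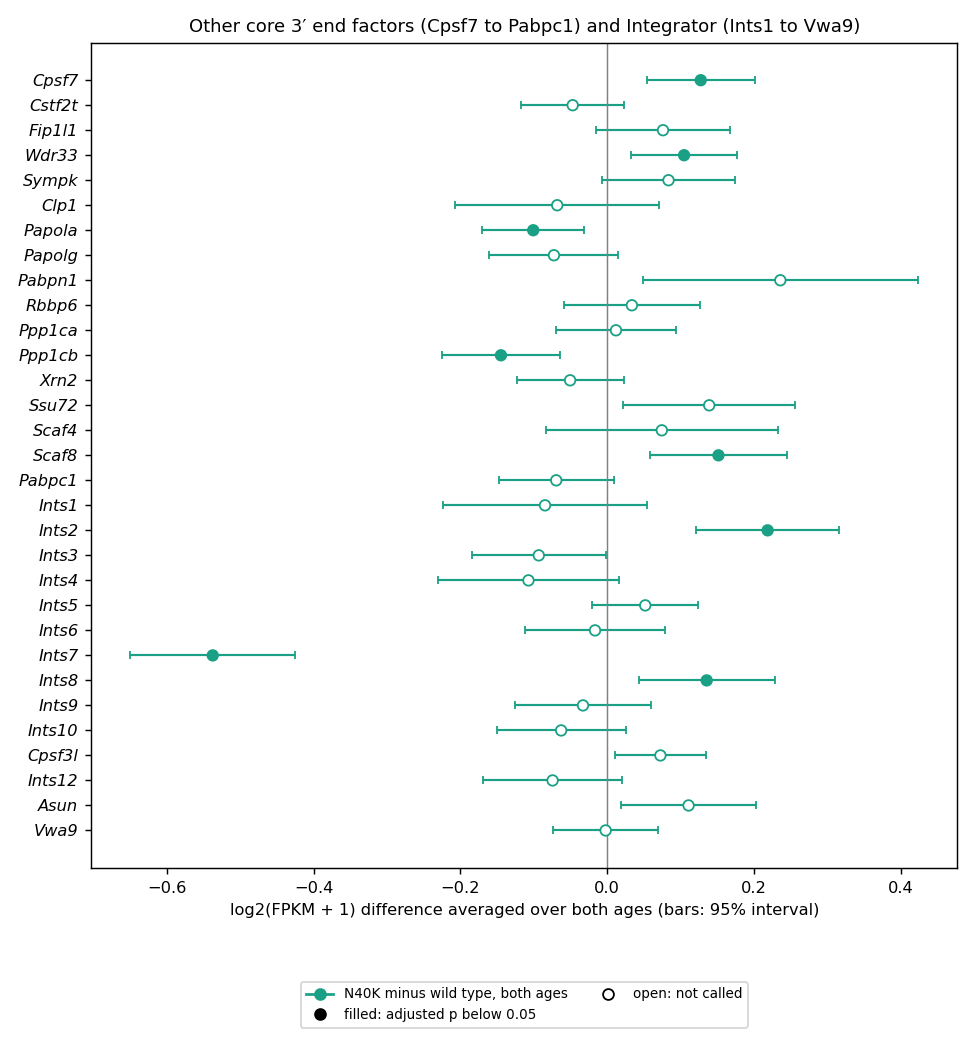
Difference in log2(FPKM + 1), N40K minus wild type averaged over both ages (horizontal axis), with 95% intervals, for 17 other core 3′ end factors and 14 Integrator subunits; filled symbols have an adjusted p below 0.05. Most of the genes lie between −0.2 and 0.2, and Ints7 stands apart at −0.54.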

How the data were processed

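Poly(A)-selected hippocampal RNA was sequenced as paired 100 bp reads, per the labels' protocols. The authors deposited FPKM values in 1 table with a column per library, all of which matched library names in the labels (0 columns left unmapped). CASAVA, BWA, STAR and the mm9 build appear, without roles, in the submitters' processing notes. How reads were counted, on which annotation and with which strand setting is not given in the sources used here. Names, lengths, GC content, exon overlaps and poly(A) windows came from GENCODE M21 on GRCm38, matching 22884 of 23352 entries (98.0%), and promoters from RefSeq.

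Tests used log2(FPKM + 1) with no added scaling, which understates fold changes of low genes. One limma 3.58.1 model (R 4.3.3) with 4 group means over 12 libraries and trended eBayes gave 6 two-sided contrasts, each adjusted by Benjamini-Hochberg over 13945 genes. Replicates are separate libraries; nothing tested that each is a separate mouse, and p-values measure the spread between libraries. No 2 libraries shared more than 0.0159% identical values. Depth was estimated from the FPKM steps of 961 receptor genes, of which 47 to 74 low non-zero values per library were used. The depth was itself picked so that many of these values fell on whole reads. Between 51.9% and 72.1% of them were whole reads to within 0.02, too few for a count test.

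The members and lists were chosen with earlier results of these data known. All 10 members are named in every genotype comparison. From other lists, genes called are named, or the 2 with the smallest p where none was called, and the 5 genes most like the member with the largest averaged difference. Alternatives changed the pseudocount, the filter, the scaling, length or GC trends, Xist or Ttr as a covariate, robust eBayes, a replicate block, each age alone and each library left out.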

Additional observations from a re-analysis of the deposited data

How the results depend on the processing

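Of 1460 alternative values of single members, 1332 kept their direction and side of the threshold, 61 lost a call, 9 gained one and 58 changed sign, none of the last a call in either fit; the cause was not tested. Members called at 3 months (2) were 1 with each age alone, 3 with the length or the GC trend removed, and 0 to 2 with 1 library left out. All genes called at 3 months (1596) were 797 to 2226 with 1 library left out, lowest without wild-type replicate 2 and highest without wild-type replicate 2 of 12 months. All genes called at 12 months (2632) were 1499 with that age alone and 1356 to 2607 with 1 library left out, lowest without N40K replicate 1. Genes whose genotype effect differed by age (9) were 3 with the GC trend removed, 0 with Xist as a covariate and 0 to 162 with 1 library left out, highest without N40K replicate 1 of 3 months. Members called with age (5) were 3 in wild-type mice under median-ratio scaling or quantile normalisation. In N40K mice they were 2 under both, 3 with the length trend removed, and 3 to 6 with 1 library left out; all genes called (7200) were then 4686 with the length trend removed. The share of genotype calls that were higher (69.5%, 59.2% and 61.9% at 3 months, 12 months and on average) was 53.5%, 58.1% and 52.9% under median-ratio scaling, 54.4%, 51.6% and 49.8% under quantile normalisation, 52.6%, 48.3% and 46.6% without the length trend, and 50.2% at 12 months over genes with a mean of at least 5 FPKM.

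The labels do not state that replicate numbers pair the libraries. Deviations of same-numbered N40K and wild-type libraries correlated at 0.057, −0.46 and −0.35 at 3 months and at 0.073, 0.0011 and 0.20 at 12 months. Those of differently numbered libraries ran from −0.22 to 0.49 at 3 months and from −0.22 to 0.18 at 12 months. With deviations taken from means of only 3 libraries, these values cannot show whether libraries were paired. With the replicate number as a block, all genes called were 1310 at 3 months, 2343 at 12 months, 3286 on average and 0 for the difference between ages; among members, Cpsf4 averaged over both ages was no longer called and no other call changed.

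The changes of sign were as follows, in log2 units. For N40K against wild type at 3 months, Cpsf1 was −0.022 under median-ratio scaling, −0.0090 under quantile normalisation, −0.0057 without the length trend, −0.055 without the GC trend and −0.0027 with Xist. Cpsf6 was −0.026, −0.015, −0.0079 and −7.37e-04 under median-ratio scaling, quantile normalisation, Xist and Ttr. Cstf3 was −0.0010 under quantile normalisation and Nudt21 0.0031 with Ttr. At 12 months Cstf3 was −2.02e-04 under quantile normalisation and Cpsf2 0.00996 with Ttr. On average Cstf1 was −0.012, −0.0026 and −0.013 under quantile normalisation and without the length or GC trend, and Cstf3 −6.22e-04 under quantile normalisation. For the difference between ages, Pcf11 was −0.030 and −0.0078 without the length or GC trend and −0.0054 with Xist, and Cstf3 −0.0098 without the GC trend. For 12 against 3 months in N40K mice, Cpsf2 was −0.043 and −0.011 and Cpsf6 −0.14 and −0.097 without the length or GC trend, and Cpsf1 was 0.090 and Cstf2 −0.015 without the GC trend. In wild-type mice Cpsf2 was 0.059 and 0.047 under median-ratio scaling and quantile normalisation, and Cstf1 0.012, 0.0013, 0.030 and 0.045 under these and without the length or GC trend. With 1 library left out, sign changes gave these ranges. At 3 months Cpsf1 ran from −0.024 to 0.032, Cpsf6 from −0.030 to 0.044 and Nudt21 from −0.071 to 0.033. At 12 months Cpsf1 ran from −0.0070 to 0.17, Cpsf2 from −0.081 to 0.037 and Cstf1 from −0.041 to 1.93e-04. Between the ages Cpsf1 ran from −0.015 to 0.16, Cpsf2 from −0.0065 to 0.11, Cpsf4 from −0.0043 to 0.085, Cstf3 from −0.033 to 0.062 and Pcf11 from −0.044 to 0.093. With age in N40K mice Cpsf2 ran from −0.018 to 0.088 and Cpsf6 from −0.019 to 0.065, and in wild-type mice Cpsf2 from −0.062 to 0.030.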
